A study of Mus musculus with 15 samples.

Results

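Cortex of 5XFAD mice was compared with cortex of control mice at 6 months of age, with 3 RNA sequencing libraries of each genotype. These 6 libraries were chosen by their labels, which give 5XFAD or WT and 6 months, and they are 6 of the 15 libraries of a study that also sampled 3 and 12 months. 5XFAD mice carry transgenes of human origin, APP among them, with mutations known from familial Alzheimer's disease, driven by a Thy1 promoter that is active mainly in neurons, and they form amyloid plaques. The controls, named WT here, are non-transgenic. Both genotypes are on the C57BL/6J background, untreated as far as the labels say, and the tissue is labelled cortex. The labels do not say whether each library came from its own animal, and p-values here reflect only how much these samples vary, which may be technical. All 37991 genes of the deposited table were considered, of which 21555 had enough counts to be tested.

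Amyloid plaques draw in microglia, the resident macrophages of the brain. Around plaques these cells switch on a programme that depends on the receptor Trem2 and its adaptor Tyrobp, with genes for phagocytosis, lysosomes, lipid handling, chemokines and antigen presentation, and some also switch on interferon-stimulated genes. Astrocytes near plaques become reactive and raise the filament protein Gfap. Bulk RNA holds all cells of the tissue, so more cells of a type and more RNA per cell cannot be told apart.

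The libraries held 113.8 M to 152.8 M counts in WT and 149.7 M to 226.7 M in 5XFAD. Levels are CPM, the count scaled by library total and TMM factor, and 3 values of a group are those of replicates 1, 2 and 3 in that order. Replicate 1 of each genotype was male and the other 4 libraries were female by Xist and Ddx3y. Both 5XFAD replicate 1 and replicate 2 were rich in Ttr, a thyroid hormone carrier of the choroid plexus, at 584 and 3720 CPM of the total count, against 5.25 in 5XFAD replicate 3 and 0.674 to 14.4 in WT. The summed choroid plexus list was 4.02 and 23.8 times its WT mean in these 2 libraries and 0.909 times in replicate 3. In 5XFAD replicate 2 the summed striatum and ependyma lists were also 1.89 and 2.43 times the WT mean. A value without the 2 Ttr-rich libraries is given where leaving them out makes or ends a call or moves a list's median by over 1.5 times. That fit keeps 5XFAD replicate 3 alone in its group, with a spread taken from the other groups. A call made there rests on a single 5XFAD library.

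Promoters were read beside the expression values to show which genes of the response carry known binding motifs near their start site. Shown here are the 200 bases upstream of the start site of 8 genes that rose, taken from RefSeq (GRCm38.p6) and written 5′ to 3′ on the strand of the gene. The capitals mark matches on either strand to 1 of 3 motifs: the interferon-stimulated response element (ISRE, GAAA and GAAA spaced by any 2 bases), the element of the myeloid factor PU.1 (GAGGAAGT), and the element bound by the lysosomal regulator TFEB (CLEAR, TCACGTGA). No printed match overlaps another. The first 3 are interferon-stimulated genes with ISRE matches. Cybb, the catalytic subunit of the phagocyte NADPH oxidase, holds 3 ISRE matches, and Fcgr4, an activating antibody receptor, holds an ISRE and a PU.1 match.
Ifit1, chr19:34640689-34640888, plus strand: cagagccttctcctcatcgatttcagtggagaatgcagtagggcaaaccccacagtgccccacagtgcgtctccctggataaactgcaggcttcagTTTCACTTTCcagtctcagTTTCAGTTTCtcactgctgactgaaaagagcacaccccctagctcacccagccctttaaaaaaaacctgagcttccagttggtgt
Ifit3, chr19:34583329-34583528, plus strand: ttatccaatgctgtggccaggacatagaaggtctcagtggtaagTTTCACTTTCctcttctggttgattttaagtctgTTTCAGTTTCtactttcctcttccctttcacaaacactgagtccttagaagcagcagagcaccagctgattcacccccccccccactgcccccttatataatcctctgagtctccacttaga
Oas3, chr5:120777660-120777859, minus strand: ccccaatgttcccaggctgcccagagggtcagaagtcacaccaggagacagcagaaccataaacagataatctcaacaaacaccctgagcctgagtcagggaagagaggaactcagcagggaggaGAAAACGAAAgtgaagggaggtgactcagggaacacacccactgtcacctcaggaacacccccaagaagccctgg
Cybb, chrX:9469325-9469524, minus strand: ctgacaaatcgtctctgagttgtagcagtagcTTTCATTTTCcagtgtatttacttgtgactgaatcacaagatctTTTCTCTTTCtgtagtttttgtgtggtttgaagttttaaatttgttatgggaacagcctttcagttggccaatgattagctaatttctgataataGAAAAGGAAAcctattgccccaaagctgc
Fcgr4, chr1:171018726-171018925, plus strand: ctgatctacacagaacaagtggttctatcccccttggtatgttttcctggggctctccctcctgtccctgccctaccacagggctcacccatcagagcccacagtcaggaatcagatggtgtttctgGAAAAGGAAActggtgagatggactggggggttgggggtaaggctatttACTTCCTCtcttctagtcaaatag

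Each of the next 3 promoters holds a single match to these 3 motifs, and that of Inpp5d also holds an unmarked match to the X2 element described after the sequences. Inpp5d, a lipid phosphatase that restrains signals of Trem2 and related receptors, and Ctsc, a lysosomal protease, have a PU.1 match 20 and 151 bases before the start site. Ctsd, the main aspartic protease of lysosomes, has a CLEAR match 99 bases before it.
Inpp5d, chr1:87620112-87620311, plus strand: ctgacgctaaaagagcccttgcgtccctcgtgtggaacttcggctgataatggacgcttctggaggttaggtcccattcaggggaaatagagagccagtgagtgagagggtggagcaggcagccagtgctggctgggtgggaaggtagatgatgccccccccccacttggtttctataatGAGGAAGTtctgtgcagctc
Ctsc, chr7:88277885-88278084, plus strand: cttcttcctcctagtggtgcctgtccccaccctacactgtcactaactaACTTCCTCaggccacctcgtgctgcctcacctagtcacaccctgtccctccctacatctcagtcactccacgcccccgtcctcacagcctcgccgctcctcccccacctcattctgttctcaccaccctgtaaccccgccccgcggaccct
Ctsd, chr7:142387828-142388027, minus strand: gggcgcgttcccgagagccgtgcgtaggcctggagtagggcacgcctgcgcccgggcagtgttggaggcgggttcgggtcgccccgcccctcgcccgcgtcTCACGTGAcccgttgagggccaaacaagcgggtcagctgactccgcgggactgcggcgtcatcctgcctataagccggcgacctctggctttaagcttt

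Motifs were counted in 300-base promoters, from 250 bases before to 50 after the start site, which RefSeq gives for 13675 of the tested genes and for 295 of the 402 genes that rose. An ISRE match lay in 12.5% of the promoters of genes that rose and in 3.71% of those of all genes tested. A PU.1 match lay in 13.6% against 3.52%. A CLEAR match lay in 1.36% against 1.76%, the sterol element TCACCCCAC of cholesterol genes in 0.678% against 0.695%, and the X2 element TGACGNNA of MHC class II promoters in 5.42% against 10.7%. ISRE and PU.1 matches occurred together in 17 tested genes, of which 6 rose. A match describes letters in this window and says nothing of binding.

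A gene is called when its adjusted p is under 0.05 in edgeR's quasi-likelihood test with Benjamini-Hochberg adjustment over all genes tested, and "rose" or "fell" is used only of called genes. By this rule 402 genes rose, 1.86% of those tested, and 16 fell, 0.0742%, together 1.94%. The change was one of large increases and small decreases. Of the genes that rose 312 did so by at least 2-fold and 62 by at least 8-fold, while 3 of the 16 fell by 2-fold or more. The median log2 fold change was 1.54 over the genes that rose and -0.65 over those that fell, and 0.01 over all genes tested. Of all genes tested 51.2% had a positive log2 fold change. In 2238 tested genes, 10.4%, all 3 5XFAD libraries lay above all 3 WT libraries, and in 1690, 7.84%, below them. The groups did not overlap for 400 of the 402 and all 16 called genes.

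**Figure D1:**
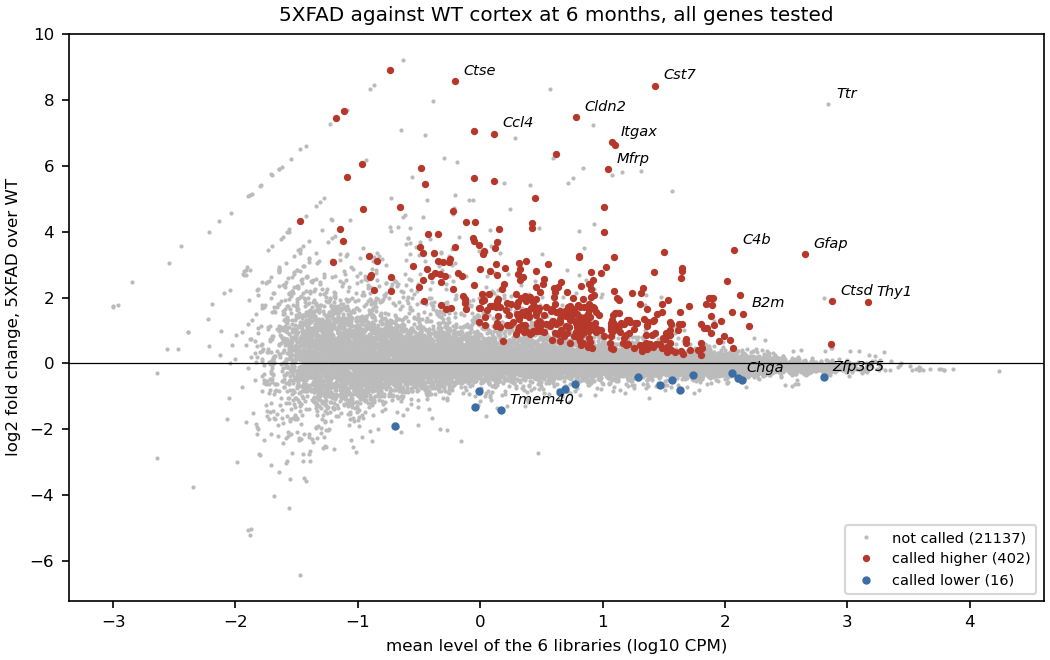
Log2 fold change (5XFAD over WT at 6 months) against mean level of the 6 libraries (log10 CPM) for the 21555 genes tested. Red points are the 402 genes called higher, blue points the 16 called lower and grey points the rest. Increases reach far larger sizes than decreases, and Cldn2 and Mfrp stand among the choroid plexus genes that follow Ttr.

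The 5XFAD libraries differed among themselves in how far the genes rose. Replicate 1, the male, was the lowest of the 3 in 381 of the 402 genes and replicate 3 the highest in 350. The median ratio of replicate 3 to replicate 1 was 2.03. Replicate 1 lay below replicate 2 and replicate 2 below replicate 3 in 335 of the 402, against 18.9% of all tested genes. A mean of 9 markers of microglia, among them P2ry12, P2ry13, Tmem119, Cx3cr1, Csf1r, Sall1, Siglech and Gpr34, taken as log2 of CPM plus 1, had the same order. Sex cannot be told apart from what else sets that library apart. The marker mean was 4.64, 4.8 and 5.04 in WT and 5.34, 5.7 and 6.23 in 5XFAD, without overlap. Of the 402 genes, 132 were called in each of the 6 fits that left out 1 library, and 143 genes rose without WT replicate 1, 195 without WT replicate 2, 263 without WT replicate 3 and 662 without 5XFAD replicate 1. Without both Ttr-rich libraries, which leaves 5XFAD replicate 3 alone with a spread taken from the other groups, 542 genes rose and 4 fell, and 26 of the 402 and 14 of the 16 were no longer called.

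Genes tied to the transgenes came first, as a check of the labels. Thy1, whose promoter drives them, was at 660, 699 and 552 CPM in WT and at 2093, 2235 and 2635 CPM in 5XFAD. No 5XFAD library came near the WT range, and the log2 fold change was 1.86 ± 0.11 with an adjusted p of 4.41e-06. Each value after ± is an approximate standard error (SE) worked back from the quasi-likelihood test. It is the size of the log2 fold change divided by the square root of the F statistic. App, Psen2, Bace1 and Mapt were not called, with log2 fold changes of 0.11, 0.11, -0.05 and -0.12. The part of human transgene reads in these counts was not tested.

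Microglial surface receptors and their signalling partners rose together. Of the 17 tested members of the Trem2 list 12 rose, with a median log2 fold change of 1.23 over the list, and 1 further member, Trem1, was removed by the filter. Trem2, a receptor for lipids and lipoproteins, was at 9.62, 11.3 and 12.3 CPM in WT and at 46.6, 63.6 and 122 CPM in 5XFAD. Tyrobp, the adaptor that carries its signal, was at 9.05, 9.95 and 12.1 CPM in WT and at 46.7, 66.5 and 121 CPM in 5XFAD. Both were highest in replicate 3, and the lowest 5XFAD library was over 3 times the highest WT library for both. Their log2 fold changes were 2.80 ± 0.32 and 2.91 ± 0.33, with adjusted p of 0.00134 and 0.0011. Treml2, a related receptor, rose by 2.90 ± 0.46 and Ptpn6, a phosphatase that dampens such signals, by 2.01 ± 0.24.

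Inpp5d, Plcg2 and Cd33, also on the Trem2 list, had smaller increases. Inpp5d was at 16, 18.6 and 19.4 CPM in WT and at 25.1, 30.5 and 43.5 CPM in 5XFAD, a log2 fold change of 0.87 ± 0.17. Plcg2, a phospholipase that Trem2 signals through, rose by 1.23 ± 0.25 and Cd33, a receptor for sialic acid, by 1.21 ± 0.20. Syk, the kinase that docks on Tyrobp, was not called, with a log2 fold change of 0.59 ± 0.18 and groups that did not overlap. Pik3cg, Pik3ap1, Lcp2, Vav1 and Card9 also rose, by 0.70 to 1.55, though leaving out single libraries ended each of these 5 calls, at adjusted p of 0.0502 to 0.222. Hcst, Lyn, Blnk and Trem3 were not called. Without the Ttr-rich libraries Syk had 0.00856, Lyn 0.00932 and Card9 0.0634, and Lyn had 0.0123 with the replicate block. The list kept 4 called members without WT replicate 1 and had 13 without 5XFAD replicate 1. Without WT replicate 1 the adjusted p was 0.0517 for Cd33, 0.114 for Inpp5d and 0.125 for Plcg2. That of Inpp5d was also 0.0715 and 0.0525 without WT replicate 2 and 3, and that of Plcg2 0.0898 and 0.0554 without these and 0.0507 and 0.0631 without 5XFAD replicate 2 and 3.

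Receptors for antibody Fc parts, which trigger uptake of coated targets, followed. In this list of 10 tested genes 6 rose, with a median of 1.70. Fcer1g, the signalling chain that several of them share, was at 5.54, 5.74 and 5.67 CPM in WT and at 13.2, 19.7 and 31.2 CPM in 5XFAD, a log2 fold change of 1.92 ± 0.27. Fcgr2b, the inhibitory member, was at 1.98, 2.99 and 2.61 CPM in WT and at 6.45, 12.4 and 21.1 CPM in 5XFAD. The activating receptors Fcgr1, Fcgr3 and Fcgr4 rose by 1.65 ± 0.25, 1.79 ± 0.28 and 2.87 ± 0.52, and the microglial Fcrls by 1.74 ± 0.33. The antibody genes Igkc and Ighm were not called, with log2 fold changes of -0.11 and 0.07. Without WT replicate 1 the list had 3 calls, and the adjusted p was 0.0517 for Fcgr3, 0.0703 for Fcgr4 and 0.111 for Fcrls. Without WT replicate 2 it was 0.0616 for Fcgr4 and 0.0871 for Fcrls.

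**Figure D2:**
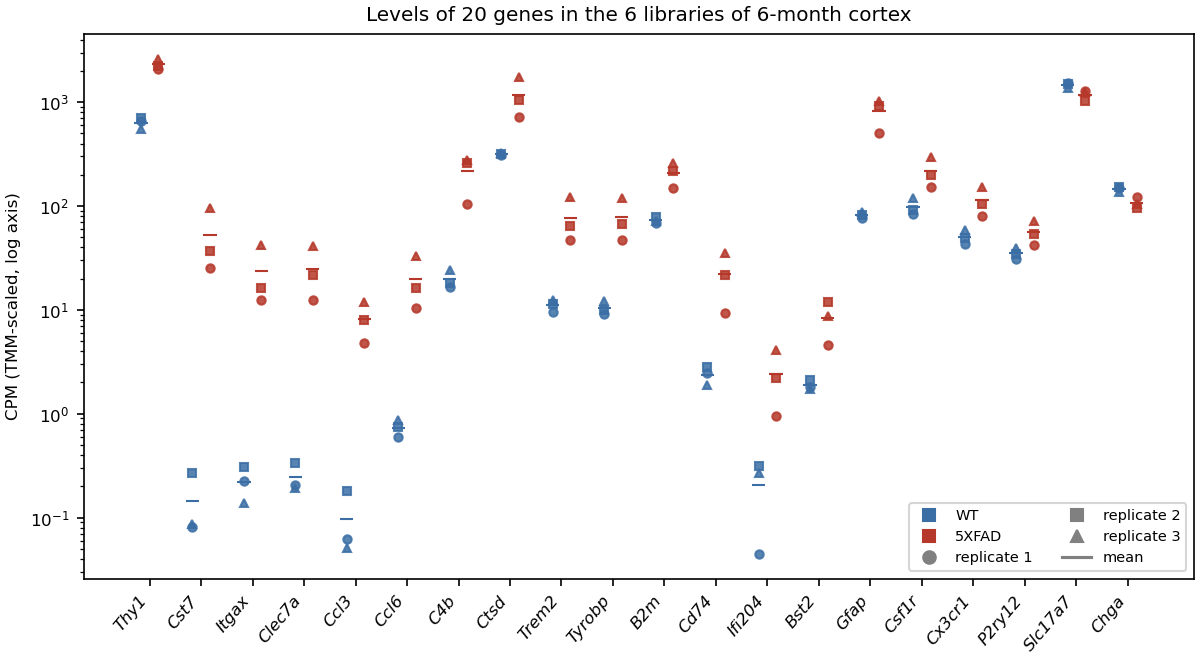
Levels (CPM, log axis) of 20 genes in the 6 libraries at 6 months. Blue is WT and red 5XFAD, circles, squares and triangles are replicates 1, 2 and 3, and bars are means. Groups stand well apart for Cst7, Itgax, Clec7a, Trem2, C4b and Gfap, lie close for P2ry12, and are lower in 5XFAD for Slc17a7 and Chga.

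Genes of microglia that gather at plaques held some of the largest increases. Of the 30 tested members 21 rose and 30 were positive, against 51.2% positive among all genes tested, with a median of 1.57. This list was drawn up from what is known of such cells in this mouse line, so its direction is not independent evidence. Cst7, an inhibitor of lysosomal cysteine proteases, was at 0.0805, 0.271 and 0.0862 CPM in WT and at 25.6, 37.1 and 96.8 CPM in 5XFAD. Itgax, an integrin chain of phagocytes, went from 0.224, 0.303 and 0.137 CPM to 12.4, 16.1 and 42.5 CPM, and Clec7a, a receptor for fungal glucans, from 0.206, 0.337 and 0.194 CPM to 12.6, 21.6 and 40.9 CPM. For all 3 genes 5XFAD replicate 3 was the highest and even replicate 1 lay far above WT. Their log2 fold changes were 8.44 ± 0.74, 6.73 ± 0.56 and 6.65 ± 0.53, with adjusted p of 0.000341, 0.000267 and 0.000189.

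Abundant members of the same list rose by smaller folds. Lgals3bp, a secreted glycoprotein, was at 11.3, 12.4 and 13.1 CPM in WT and at 40.7, 86.7 and 97.1 CPM in 5XFAD. Lyz2, which encodes lysozyme, was at 4.07, 6.33 and 6.05 CPM in WT and at 30.1, 52.6 and 91.1 CPM in 5XFAD. Cd52 and Cd68, surface and lysosomal glycoproteins of phagocytes, rose by 3.22 ± 0.35 and 2.78 ± 0.34. Other well-known members were not called. Apoe, the lipid carrier of astrocytes and microglia, was at 838, 886 and 980 CPM in WT and at 921, 1214 and 1400 CPM in 5XFAD, a log2 fold change of 0.39 ± 0.17 with an adjusted p of 0.35 and groups that overlapped. Spp1, which encodes osteopontin, was at 6.03, 13.9 and 39.3 CPM in 5XFAD against 6.55, 8.51 and 4.62 CPM in WT. Gpnmb, a lysosomal glycoprotein of lipid-laden macrophages, was at 2.99, 6.02 and 20.6 CPM against 2.24, 2.25 and 2.24 CPM. Both were high mainly in 5XFAD replicate 3, with adjusted p of 0.271 and 0.155, and 0.0217 and 0.00638 without the Ttr-rich libraries, where that replicate stands alone for 5XFAD. The list had 16 calls without WT replicate 1 and 24 without 5XFAD replicate 1.

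Among secreted signals the chemokines of macrophages stood out. Of the 17 tested chemokines 7 rose, with a median of 1.85, and Cxcl2 was removed by the filter. Ccl3 was at 0.0626, 0.178 and 0.0503 CPM in WT and at 4.82, 7.91 and 12 CPM in 5XFAD, a log2 fold change of 6.36 ± 0.51, and Ccl6 at 0.599, 0.739 and 0.87 CPM in WT and at 10.4, 16.1 and 32.8 CPM in 5XFAD. Cxcl10, an interferon-induced attractant of T cells, was at 0.0179, 0.099 and 0.0144 CPM in WT and at 0.71, 0.914 and 1.83 CPM in 5XFAD. Ccl12, Ccl9 and Cxcl16 rose by 3.93 ± 0.52, 1.85 ± 0.30 and 1.48 ± 0.26. Ccl2 and Ccl5 were not called, with log2 fold changes of 1.91 ± 0.80 and 2.53 ± 0.77. Neither were Cx3cl1, Cxcl12 and Cxcl14, which neurons, vessels and interneurons make at high levels, with -0.17, -0.16 and -0.06. The summed CPM of the whole chemokine list was 0.899 to 1.0 times its WT mean in the 5XFAD libraries. Without WT replicate 1 the call of Cxcl16 ended, at an adjusted p of 0.0705, and the list kept 6.

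Of 12 tested chemokine receptors 1 rose, against 2 without the Ttr-rich libraries. Cx3cr1, the receptor of Cx3cl1, was at 43.4, 48.9 and 59.4 CPM in WT and at 79.8, 106 and 154 CPM in 5XFAD, with an adjusted p of 0.016, moving to 0.103 and 0.0823 without WT replicate 1 and 2. Of the 27 tested cytokines and cytokine receptors 12 rose, with a median of 0.91, while Il10 and Il12b were removed by the filter. Csf3r, a granulocyte growth factor receptor, was at 6.81, 6.77 and 9.23 CPM in WT and at 20.3, 33.3 and 47.1 CPM in 5XFAD, a log2 fold change of 2.14 ± 0.26. Tnfsf8, a ligand of the TNF family, was at 0.902, 1.47 and 2.87 CPM in 5XFAD and at most 0.0791 CPM in WT. Tgfbr2, a receptor of TGF-beta, rose by 1.27 ± 0.18 and Il1a by 1.69 ± 0.26. The classical inflammatory cytokines Il1b, Tnf and Il6 were not called. Il1b was at 0.313, 0.264 and 0.295 CPM in WT and at 0.418, 0.466 and 0.803 CPM in 5XFAD, Tnf was below 0.2 CPM in every library, and Il6 had 16 and 29 counts in all. Il1rn, the natural blocker of the interleukin 1 receptor, had 0 counts in WT and 90 in 5XFAD, at least 21.7-fold higher against a floor of 3 counts over the group, counting error only. Its adjusted p of 0.0357 moved to 0.0521 with the replicate block, 0.0556 without the Ttr-rich libraries and 0.0733 to 0.121 without any single library other than 5XFAD replicate 1. The cytokine list had 4 calls without WT replicate 1 and 17 without 5XFAD replicate 1.

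Complement genes rose at several steps of the cascade. Of 23 tested members 12 rose, with a median of 1.09, while C6, C9, Cfd and Cfi were removed by the filter. The 3 chains of C1q, which starts the classical pathway and tags synapses and debris, moved as one. C1qa was at 25.1, 31.3 and 35.8 CPM in WT and at 72.6, 108 and 184 CPM in 5XFAD, C1qb at 27, 31.3 and 37.5 CPM and at 75, 117 and 186 CPM, and C1qc at 25.2, 28.7 and 34.5 CPM and at 71.8, 105 and 176 CPM. Their log2 fold changes lay between 1.98 and 2.00. C4b, the next step, was at 16.5, 18.2 and 24.5 CPM in WT and at 105, 261 and 279 CPM in 5XFAD, though C4a is a near copy and the 2 may share reads. C4a rose under that limit, and leaving out any single library other than 5XFAD replicate 1 ended its call, at 0.0515 to 0.191.

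C3, where the pathways of complement meet, had low levels. It was at 0.125, 0.178 and 0.244 CPM in WT and at 0.571, 2.84 and 2.46 CPM in 5XFAD, a log2 fold change of 3.41 ± 0.73 with an adjusted p of 0.0357. The receptors C3ar1 and C5ar1 rose by 2.34 ± 0.29 and 1.62 ± 0.33 and C5ar2 by 1.15. The call of C5ar2 ended without WT replicate 1 or 2 and 5XFAD replicate 2 or 3, at 0.117 to 0.194. Itgb2, which pairs with Itgax or Itgam as a complement receptor, was at 4.4, 5.06 and 6.27 CPM in WT and at 13.3, 18.8 and 30.5 CPM in 5XFAD. Itgam itself had a log2 fold change of 1.09 ± 0.28 and an adjusted p of 0.0857, moving to 0.00473 with the replicate block and 0.00371 without the Ttr-rich libraries. The proteases C1ra, C1s1 and C2 and the regulators Serping1 and Cd55 were not called, at -0.15 to 0.11. The list had 5 calls without WT replicate 1, where the adjusted p was 0.0568 for C1qa, 0.0517 for C1qb, 0.187 for C3 and 0.115 for C5ar1. The call of C3 also ended without every other library but 5XFAD replicate 1, at 0.0905 to 0.158, and that of C5ar1 without WT replicate 2 and 5XFAD replicates 2 and 3, at 0.0507 to 0.0908.

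Sensors of microbes and damage rose in part. Of 21 tested Toll-like receptors and adaptors 9 rose, with a median of 1.13. Tlr2, a receptor for lipoproteins, was at 0.501, 0.811 and 1.03 CPM in WT and at 3.24, 6.05 and 9.71 CPM in 5XFAD. Its co-receptor Cd14 was at 1.01, 1.27 and 1.8 CPM in WT and at 3.66, 6.2 and 9.95 CPM in 5XFAD. Cd180 and Ly86, which form a receptor pair of their own, rose by 2.74 ± 0.36 and 2.27 ± 0.28, and Tlr12 by 1.82 ± 0.28. Tlr7, an RNA sensor, rose by 1.72 ± 0.35, with an adjusted p of 0.0227, moving to 0.137, 0.076 and 0.0816 without WT replicate 1, 2 and 3 and 0.0551 without 5XFAD replicate 3. Tlr4, Tlr3 and the adaptor Myd88 were not called, with log2 fold changes of 1.08 ± 0.41, 0.27 ± 0.13 and 0.18 ± 0.16. The list had 5 calls without WT replicate 1.

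Of 12 tested inflammasome genes 4 rose and 12 were positive, against 51.2% positive among all genes tested, with a median of 0.99. Naip2 and Naip5, sensors of bacterial proteins, rose by 2.17 ± 0.35 and 1.80 ± 0.29, and Pycard, the shared adaptor, was at 0.984, 1.58 and 1.39 CPM in WT and at 2.52, 4.75 and 5.7 CPM in 5XFAD. Casp1, the protease that matures interleukin 1, rose by 0.93 ± 0.17, with an adjusted p of 0.0116, moving to 0.0647 without the Ttr-rich libraries and 0.0732 and 0.076 without WT replicate 1 and 2. Pycard had 0.0728 without WT replicate 1, where the list had 2 calls, against 7 without 5XFAD replicate 1 and 6 with the replicate block. Nlrp3 and Gsdmd were not called, at 1.43 ± 0.37 and 0.79 ± 0.19, with adjusted p of 0.0747 and 0.053, and Gsdmd had 0.0433 with the replicate block. Both passed in the fit without the Ttr-rich libraries, where 5XFAD replicate 3 stands alone for its group.

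Most genes listed for the phagocyte NADPH oxidase, which makes superoxide, rose. Of 7 tested genes 6 rose, with a median of 1.42. Among the 6 is Hvcn1, a proton channel that is not a subunit of the oxidase. Cybb, whose promoter with 3 ISRE matches is printed above, was at 0.34, 0.581 and 0.69 CPM in WT and at 2.24, 3.34 and 4.98 CPM in 5XFAD. Its membrane partner Cyba was at 2.44, 2.35 and 3.67 CPM in WT and at 7.17, 8.95 and 16.9 CPM in 5XFAD. The log2 fold changes were 2.70 ± 0.32 and 1.97 ± 0.32, and the cytosolic subunit Ncf1 rose by 1.42 ± 0.29. Ncf4 was not called, with a log2 fold change of 0.98 ± 0.30 and an adjusted p of 0.162, or 0.0072 without the Ttr-rich libraries. Without WT replicate 1 Cybb alone remained called, and the adjusted p of Cyba and Ncf1 was 0.0591 and 0.134. Without WT replicate 2 it was 0.0501 for Cyba and 0.113 for Ncf1.

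Markers of resting microglia were also higher, by less. Of the 24 tested members of the homeostatic list 11 rose, with a median of 0.72, or 1.09 without the Ttr-rich libraries. Csf1r, the growth factor receptor on which microglia depend, was at 83.4, 92 and 118 CPM in WT and at 154, 200 and 295 CPM in 5XFAD. P2ry12, a receptor for nucleotides that guides the processes of resting cells, was at 30.6, 34.7 and 39.8 CPM in WT and at 42.4, 54.2 and 71.2 CPM in 5XFAD. The groups did not overlap for either gene, yet P2ry12 was not called, with a log2 fold change of 0.67 ± 0.17 and an adjusted p of 0.0669, moving to 0.00583 with the replicate block and 0.00231 without the Ttr-rich libraries. Tmem119 was not called either, at 0.61 ± 0.25, and had an adjusted p of 0.0121 without the Ttr-rich libraries. Sall1 was not called, at 0.44 ± 0.15, with 0.0168 under the replicate block. The list had 1 call without WT replicate 1 and 14 without 5XFAD replicate 1. Csf1r had adjusted p of 0.0799 and 0.0674 without WT replicate 1 and 2.

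Set against the mean of the 9 microglial markers, members of the homeostatic list spread apart. Differences here are of log2 of CPM plus 1 minus that mean. The mean is built from 9 genes that include P2ry12 and Tmem119, so some of the 9 must lie lower whenever others rise more. The values of these genes against the mean therefore cannot show a fall per cell. P2ry12 lay 0.34, 0.36 and 0.31 above the mean in WT and 0.1, 0.08 and -0.06 in 5XFAD. Tmem119 lay at -0.67, -0.72 and -0.54 in WT and at -1.11, -1.14 and -0.9 in 5XFAD. Both were lower against the mean in each 5XFAD library than in each WT library. Trem2, Cd68 and C1qa, which are not in the mean, differed by 1.65, 1.54 and 0.93 in the other direction, without overlap.

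Transcription factors of the microglial lineage rose in 10 of 27 tested cases, with a median of 0.47. Irf8, a factor of microglial development and activation, was at 4.24, 3.9 and 5.38 CPM in WT and at 12.3, 18.8 and 30.3 CPM in 5XFAD, a log2 fold change of 2.19 ± 0.28. Spi1, which encodes PU.1, was at 2.02, 2.35 and 2.69 CPM in WT and at 4.79, 6.25 and 8.8 CPM in 5XFAD, and Runx1 at 0.456, 0.937 and 0.805 CPM and at 2.14, 2.73 and 4.68 CPM. The groups did not overlap for any of the 3. Irf5 rose as well, and Stat2, Cebpa, Irf7 and Ikzf1 rose by 0.37 to 1.28. Mef2c, an abundant neuronal as well as microglial factor, was not called, at 0.11 ± 0.15. The list had 5 calls without WT replicate 1, where Irf5, Irf7, Ikzf1, Cebpa and Stat2 had adjusted p of 0.0682, 0.0665, 0.125, 0.164 and 0.0699. Without WT replicate 2 the first 4 had 0.0596, 0.078, 0.0977 and 0.159, and Ikzf1 and Cebpa also lost their call without WT replicate 3 or 5XFAD replicate 3, at 0.0502 to 0.0807.

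**Figure D3:**
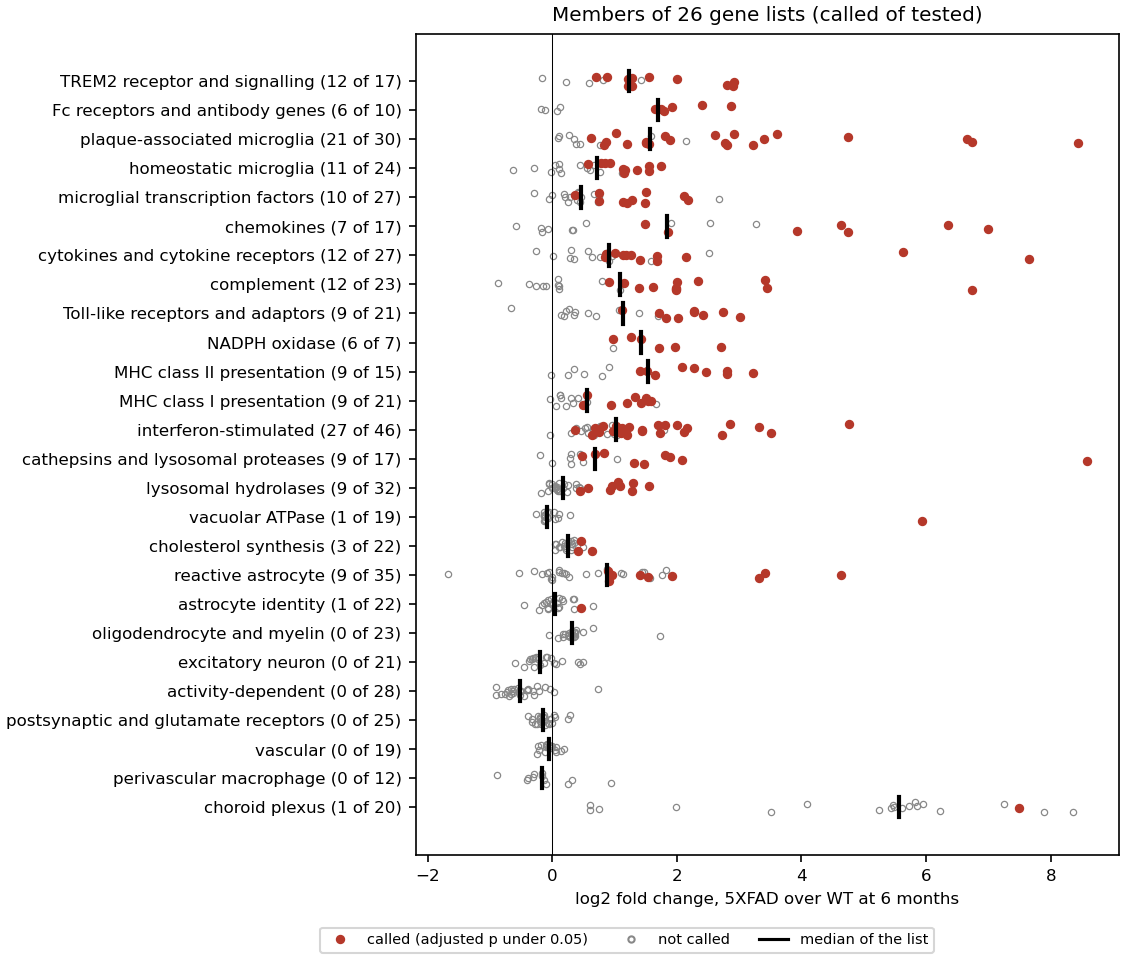
Log2 fold change of the tested members of 26 gene lists, one row a list. Filled points are called members, open points members not called and black bars the list medians; the number called of the number tested follows each name. Most immune and lysosomal lists lie to the right. The vacuolar ATPase, perivascular macrophage and neuronal lists lie slightly to the left, and choroid plexus genes far to the right with 1 call.

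Antigen presentation rose in both classes. Of 15 tested genes of MHC class II presentation, which shows peptides to CD4 T cells, 9 rose, with a median of 1.53. Cd74, the invariant chain, was at 2.44, 2.79 and 1.87 CPM in WT and at 9.34, 21.5 and 35.7 CPM in 5XFAD, a log2 fold change of 3.23 ± 0.40. The chains H2-Ab1 and H2-Aa were at 2.2, 4.59 and 8.21 CPM and at 3.92, 6.83 and 12.6 CPM in 5XFAD, against at most 0.944 and 2.04 CPM in WT. H2-Oa and H2-Ob, which restrain peptide loading, rose by 2.81 ± 0.42 and 2.27 ± 0.31, and the costimulator Cd86 by 1.65 ± 0.27. Ciita, the master regulator of the class, was at 3.02, 2.84 and 3.74 CPM in WT and at 3.5, 2.71 and 3.26 CPM in 5XFAD, with no separation. Reads of H2 genes can be shared between them. H2-Eb1 rose by 1.53 ± 0.34 with an adjusted p of 0.035, moving to 0.0822 with the replicate block and 0.0626 to 0.153 without any single library other than 5XFAD replicate 1. H2-Aa had 0.0665 without WT replicate 1, where the list had 6 calls.

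Of 21 tested genes of MHC class I presentation 9 rose, with a median of 0.56. B2m, the light chain, was at 68.6, 78.6 and 72 CPM in WT and at 150, 216 and 258 CPM in 5XFAD, a log2 fold change of 1.51 ± 0.16. The heavy chain H2-D1 was at 43.7, 41.1 and 40.5 CPM in WT and at 82.2, 109 and 145 CPM in 5XFAD, and the peptide transporter Tap1 rose by 1.33 ± 0.17. For these 3 genes the lowest 5XFAD library lay well above the highest WT library. H2-K1 and the immunoproteasome subunit Psmb8 rose by 1.20 ± 0.20 and 1.54 ± 0.27. The adjusted p was 0.0591 for H2-K1 without WT replicate 1 and 0.0556 for Psmb8 without WT replicate 2, and the list had 4 calls without WT replicate 1 and 12 without 5XFAD replicate 1.

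Interferon-stimulated genes gave more called members than any other list used, but only the Alzheimer's risk gene list, with 49 tested members, was larger. By share called, the NADPH oxidase (6 of 7), Trem2 (12 of 17) and plaque-associated (21 of 30) lists lay higher, among others. Of 46 tested interferon-stimulated genes 27 rose and 45 were positive, against 51.2% positive among all genes tested. Their median was 1.03, and Ifi44l was removed by the filter. Bst2, which tethers budding virus, was at 1.81, 2.1 and 1.73 CPM in WT and at 4.63, 11.8 and 8.75 CPM in 5XFAD. Ifi204, a DNA sensor of the interferon-inducible family, was at 0.0447, 0.31 and 0.266 CPM in WT and at 0.956, 2.21 and 4.1 CPM in 5XFAD. The log2 fold changes were 2.16 ± 0.26 and 3.52 ± 0.59. Oasl2, Trim30a, Eif2ak2 and Gbp3, which act against viruses and other pathogens, rose by 1.82 ± 0.29, 1.45 ± 0.22, 1.06 ± 0.15 and 0.97 ± 0.15. Ifit3 was at 6.72, 8.71 and 7.83 CPM in WT and at 11.9, 15.6 and 20 CPM in 5XFAD, and Ifit1 at 1.6, 2.26 and 2.4 CPM and at 3.01, 5.08 and 6.16 CPM. Oas3, an RNA-activated enzyme, had 6 counts in WT and 268 in 5XFAD, a ratio of 32.3 with an exact 95% Poisson interval of 14.7 to 88.9 that covers counting error only.

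The promoters printed above for Ifit1, Ifit3 and Oas3 stand for the list. An ISRE match lay in 20 of the 34 tested interferon-stimulated genes with a RefSeq promoter, 58.8%, and in 14 of the 17 that rose, 82.4%. These genes are known as a class for that element, so the share is a description. The list depended on single libraries, with 10 calls without WT replicate 1 and 39 without 5XFAD replicate 1. The adjusted p of Ifit3 became 0.0517 without WT replicate 1, Oas3 0.0632, 0.0883 and 0.0698 without WT replicate 1, 2 and 3, and Ifit1 0.0515 to 0.134 without any single library other than 5XFAD replicate 1.

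Lysosomal genes rose in a larger share of the proteases than of the hydrolases and membrane genes. Of 17 tested cathepsins and lysosomal proteases 9 rose, with a median of 0.69. Ctsd was at 310, 314 and 327 CPM in WT and at 726, 1049 and 1763 CPM in 5XFAD, a log2 fold change of 1.90 ± 0.25 with an adjusted p of 0.00246. Ctss, which trims the invariant chain, was at 44.1, 48.9 and 57.2 CPM in WT and at 131, 202 and 306 CPM in 5XFAD. Ctse, an aspartic protease of immune cells, was all but absent in WT, with 1 count against 752, a ratio of 544 with an exact 95% Poisson interval of 97.4 to 21500. Ctsz and Ctsl rose by 1.81 ± 0.28 and 0.84 ± 0.14. Ctsb was not called, with 0.45 ± 0.11 and an adjusted p of 0.0503, and 0.0171 without the Ttr-rich libraries. A CLEAR match lay in 2 of the 7 called members with a RefSeq promoter, Ctsd and Ctsa, of which Ctsa lost its call without WT replicate 1 and 2, at 0.0734 and 0.0586. The list had 5 calls without WT replicate 1, and Ctsc, which rose by 1.48 ± 0.24, had 0.0517 there.

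Of 32 tested lysosomal hydrolases 9 rose, with a median of 0.18, or 0.28 without the Ttr-rich libraries. They include Man2b1, which trims mannose, at 49.9, 50.2 and 57.1 CPM in WT and at 80.4, 97.9 and 122 CPM in 5XFAD, and Naglu, which degrades heparan sulfate, with 1.06 ± 0.17. Grn, which encodes progranulin, was at 47.2, 55.7 and 57.6 CPM in WT and at 89.3, 121 and 181 CPM in 5XFAD, and Hexa rose by 1.08 ± 0.18. Both lost their call without WT replicate 1, at 0.0617, where the list had 4 calls. Gaa and Psap were not called, at 0.05 and 0.07. Of 25 tested lysosomal membrane and transport genes 9 rose, with a median of 0.24. The transporters Slc15a3, Slc11a1 and Slc37a2, which are markers of macrophages, rose by 3.26 ± 0.32, 2.78 ± 0.27 and 2.08 ± 0.19, and the cholesterol carrier Npc2 by 1.07 ± 0.17. Lamp1, the common marker of lysosomes, was at 264, 268 and 288 CPM in WT and at 307, 322 and 336 CPM in 5XFAD and was not called, at 0.24 ± 0.08.

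The proton pump that acidifies lysosomes had few calls. Of 19 tested subunits of the vacuolar ATPase 1 rose, with a median of -0.08 and 6 positive. That one was Atp6v0d2, a subunit form of macrophages and osteoclasts, with 4 counts in WT and 415 in 5XFAD, a ratio of 75.1 with an exact 95% Poisson interval of 29.1 to 277. It was at 0.0863, 0.477 and 1.38 CPM in the 5XFAD libraries, and its adjusted p of 0.0156 was 0.102, 0.0984 and 0.0771 without WT replicate 1, 2 and 3. Atp6v1g2, the neuronal form of another subunit, was at 494, 479 and 443 CPM in WT and at 425, 359 and 401 CPM in 5XFAD, and was not called, at -0.26 ± 0.09.

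**Figure D4:**
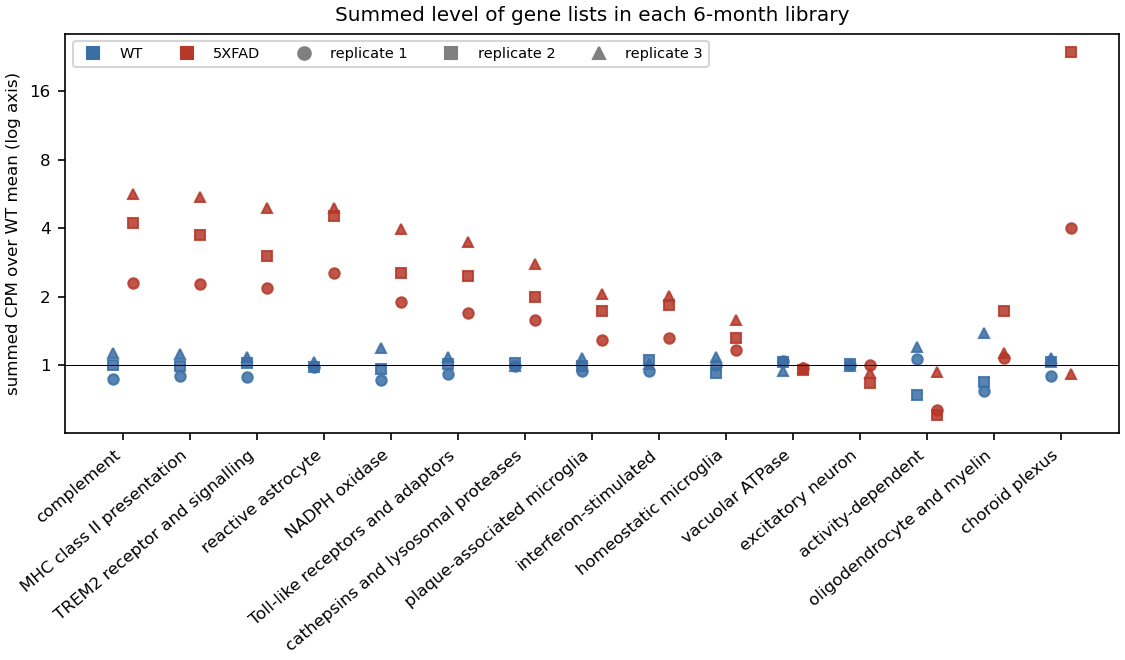
Summed CPM of 15 gene lists in each 6-month library, divided by the WT mean of the list (log axis). Blue is WT, red 5XFAD, and circles, squares and triangles are replicates 1, 2 and 3. Complement reaches 2.29, 4.23 and 5.67 in 5XFAD, MHC class II presentation 2.26, 3.72 and 5.5, and the Trem2 list 2.18, 3.02 and 4.91, while choroid plexus genes are high in replicates 1 and 2 alone.

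The lipid genes that rose include ones known from macrophages. Of 34 tested lipid handling genes 8 rose, with a median of 0.32, and 3 were called without WT replicate 1. Lpl, which frees fatty acids from lipoproteins, was at 14.3, 12.1 and 16.8 CPM in WT and at 30.6, 43.1 and 49.1 CPM in 5XFAD, a log2 fold change of 1.51 ± 0.23. Ch25h, which makes an oxysterol that attracts immune cells, was at 0.268, 0.165 and 0.165 CPM in WT and at 1.32, 1.89 and 4.48 CPM in 5XFAD. Gpr183, the receptor of the product made from that oxysterol, was at 0.984, 0.884 and 0.87 CPM in WT and at 2.97, 3.48 and 4.75 CPM in 5XFAD. Enzyme and receptor rose by 3.69 ± 0.57 and 2.03 ± 0.21. Lgals3, a galectin of phagocytes, rose by 3.61 ± 0.55. The transporters Abca1 and Abcg1 were not called, at 0.68 ± 0.23 and -0.09, and Abca1 had an adjusted p of 0.00781 with the replicate block.

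Cholesterol synthesis genes were higher by small and even amounts. All 22 tested members were positive, against 51.2% of all genes tested. In 16 all 5XFAD libraries lay above all WT libraries, against 10.4% of all genes tested. The median was 0.25, and 3 rose. Nsdhl was at 24, 25.5 and 26.8 CPM in WT and at 32.7, 33.5 and 39.4 CPM in 5XFAD, a log2 fold change of 0.47 ± 0.08. Fdps was at 50.1, 52.4 and 52.1 CPM in WT and at 63.9, 65.7 and 75.7 CPM in 5XFAD, a log2 fold change of 0.41 ± 0.08. Lss and Sqle were not called, at 0.35 ± 0.08 and 0.30 ± 0.08, and Lss had an adjusted p of 0.0303 with the replicate block. The regulator Srebf2 was not called, at 0.06 ± 0.09. No sterol element match lay in the 15 members with a RefSeq promoter. Called members numbered 5 without 5XFAD replicate 2. Without WT replicate 1 no member was called, with adjusted p of 0.0713 and 0.11 for Nsdhl and Fdps. The other libraries that ended these calls were WT replicate 2 for both genes, at 0.0565 and 0.0815, and WT replicate 3 and 5XFAD replicate 3 for Fdps, at 0.0604 and 0.0772. Without the Ttr-rich libraries 8 members were called, Lss and Sqle among them, at 0.00757 and 0.0296.

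Receptors for purines and metabolites rose in 6 of 21 tested cases, with a median of 0.61. The list had 3 calls without WT replicate 1 and 9 with the replicate block. Hcar2, the niacin and ketone body receptor, had 5 counts in WT and 1098 in 5XFAD, a ratio of 159 with an exact 95% Poisson interval of 67.9 to 491, and it was at 0.79, 1.16 and 3.36 CPM in the 5XFAD libraries. Gpr84, a receptor for medium-chain fatty acids, rose by 2.86 ± 0.37 and P2ry6, a UDP receptor of phagocytes, by 0.98 ± 0.19. The adjusted p of P2ry6 became 0.0682 and 0.0905 without WT replicate 1 and 2. Of 27 tested glycolysis genes 2 rose, Hk3 and Slc2a5, a hexokinase and a sugar transporter of myeloid cells, at 1.47 ± 0.27 and 0.79 ± 0.18, while the list median was -0.09, or -0.04 without the Ttr-rich libraries, and 5 members were called without 5XFAD replicate 1. Neither was called without WT replicate 1, at 0.0843 and 0.191, or WT replicate 2, at 0.0692 and 0.159. Slc2a5 also had 0.0509 with the replicate block and lost its call without WT replicate 3 and 5XFAD replicates 2 and 3, at 0.0816 to 0.144.

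Reactive astrocyte genes rose in part, while identity markers of astrocytes had a median near 0. Of 35 tested reactive astrocyte genes 9 rose, with a median of 0.88 that was 0.48 without the Ttr-rich libraries. Gfap was at 76.7, 82.3 and 87.2 CPM in WT and at 506, 910 and 1031 CPM in 5XFAD, a log2 fold change of 3.31 ± 0.32 with an adjusted p of 0.000546. Serpina3n, a secreted protease inhibitor, was at 16, 14.5 and 12.3 CPM in WT and at 33.3, 50.1 and 79.7 CPM in 5XFAD, and Osmr, the oncostatin M receptor, at 3.75, 4.08 and 4.2 CPM and at 6.95, 10.3 and 14.4 CPM. The 5XFAD libraries lay above WT for all 3 genes. Vim, a filament partner of Gfap, was at 27.2, 50.4 and 51.1 CPM in 5XFAD against 24.3, 24.5 and 28.1 CPM in WT, so that replicate 1 overlapped, and was not called. Cd44 was not called, at 1.45 ± 0.58, with 0.0166 under the replicate block. The list had 2 calls without WT replicate 2 and 11 without 5XFAD replicate 1. Serpina3n had adjusted p of 0.0892, 0.0905 and 0.0999 without WT replicate 1, 2 and 3 and 0.0618 without 5XFAD replicate 3, and Osmr 0.0575 to 0.122 without any single library other than 5XFAD replicate 1. Some listed genes, among them Cxcl10, C3 and Psmb8, are also expressed by microglia.

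Of the 22 tested markers of astrocyte identity 1 rose, with a median of 0.04, or 0.10 without the Ttr-rich libraries. With the replicate block 2 were called. The glutamate transporters Slc1a2 and Slc1a3 had log2 fold changes of -0.00 ± 0.08 and -0.02 ± 0.11, and the enzyme Aldh1l1 had 0.11 ± 0.09. The water channel Aqp4 was at 64.6, 85.1 and 75 CPM in WT and at 82.9, 131 and 139 CPM in 5XFAD and was not called, at 0.65 ± 0.24, with 0.0108 under the replicate block. The member that rose was Atp13a4, by 0.46 ± 0.10, with an adjusted p of 0.0367, moving to 0.0635 with the replicate block, 0.0861 without the Ttr-rich libraries and 0.069 to 0.184 without any single library other than 5XFAD replicate 2.

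The list of T cell and checkpoint genes had 4 called of 20 tested members and a median of 1.53, while Gzma and Tigit were removed by the filter. At an unadjusted p under 0.05 it held 13 members, against 2739 of all 21555 genes tested, and DESeq2 called 7, against 862. Without WT replicate 1 edgeR called 2. Those that rose were Pdcd1, Lag3, Havcr2 and Cd274, which are checkpoint receptors and a ligand that myeloid cells can also express. Pdcd1 was at 0.0179, 0.106 and 0.0288 CPM in WT and at 1.23, 2.17 and 4.16 CPM in 5XFAD. Lag3 was at 5.88, 5.91 and 7.34 CPM in WT and at 19, 26.8 and 38.9 CPM in 5XFAD. The T cell receptor chain Cd3e, in contrast, had 9 counts in WT and 51 in 5XFAD and was not called, and Cd8a and Cd8b1 were not called either, with adjusted p of 0.0652 and 0.0577, though their groups did not overlap. Cd8a was at 0.139, 0.184 and 0.324 CPM in 5XFAD against 0.0805, 0.0396 and 0.0144 CPM in WT. Both passed in the fit without the Ttr-rich libraries, where 5XFAD replicate 3 stands alone for its group. Havcr2 and Cd274 rose by 1.72 ± 0.28 and 1.14 ± 0.20, with adjusted p of 0.0553 and 0.0631 without WT replicate 1 and 0.0558 for Cd274 without WT replicate 3.

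Of the 5 tested B cell genes, the 9 of neutrophils and monocytes and the 12 of perivascular macrophages none was called by edgeR or DESeq2 and 0 had an unadjusted p under 0.05, with medians of 0.07, 0.47 and -0.16. The medians were -0.12, 0.83 and -0.06 when the Ttr-rich libraries were left out. The monocyte markers Ly6c2 and Ccr2 were at 0.843, 0.633 and 0.773 CPM and at 0.166, 0.207 and 0.346 CPM in 5XFAD, against 0.483, 0.607 and 0.755 CPM and 0.134, 0.191 and 0.194 CPM in WT. Ly6g, the defining marker of neutrophils, had 0 counts in all 6 libraries. Mrc1, the mannose receptor of perivascular macrophages, was at 1.81, 4.74 and 2.11 CPM in WT and at 0.79, 4.53 and 2.74 CPM in 5XFAD. The groups overlapped for these genes.

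None of the following lists of neuronal genes had a called member in the main test. Of 21 tested excitatory neuron markers, 23 interneuron markers, 22 genes of vesicle release, 25 postsynaptic genes and 15 GABA receptor genes none was called by edgeR. Their medians were -0.20, -0.15, -0.14, -0.15 and -0.10. At an unadjusted p under 0.05 they held 6, 5, 3, 7 and 5 genes, against 2739 of all 21555 genes tested. DESeq2 called 1, 1, 2, 1 and 1, against 862 of all genes tested. With the replicate block 1 excitatory gene and 1 gene of vesicle release were called. Without the Ttr-rich libraries the median of the GABA receptor genes was -0.18. Slc17a7, which loads glutamate into vesicles, was at 1519, 1487 and 1362 CPM in WT and at 1272, 1020 and 1262 CPM in 5XFAD, below WT in each library, with a log2 fold change of -0.30 ± 0.11 and an adjusted p of 0.258. Neurod6, a factor of cortical projection neurons, was at 94.9, 87.8 and 95.9 CPM in WT and at 59.5, 53 and 72.1 CPM in 5XFAD, with an adjusted p of 0.0731, moving to 0.00653 with the replicate block and 0.882 without the Ttr-rich libraries. Gabra5, a GABA receptor subunit, had -0.48 ± 0.12 and an adjusted p of 0.0536. In 10 of the 21 excitatory genes and 11 of the 25 postsynaptic genes all 3 5XFAD libraries lay below all 3 WT libraries, against the 7.84% of all tested genes. In the opposite direction, Rims1, a scaffold of the release site, was at 315, 320 and 304 CPM in WT and at 431, 367 and 414 CPM in 5XFAD, with 0.37 ± 0.09 and an adjusted p of 0.075, or 0.0491 with the replicate block.

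Genes that respond to neuronal activity were lower in 26 of 28 tested cases, while 51.2% of all genes tested were positive. The median of the list was -0.52. No member was called by edgeR or DESeq2 and 0 had an unadjusted p under 0.05. Egr1 was at 506, 273 and 567 CPM in WT and at 314, 227 and 332 CPM in 5XFAD. Fos was at 108, 47.8 and 63.9 CPM in WT and at 21.1, 34.4 and 62 CPM in 5XFAD. The groups overlapped for both, and WT replicate 2 was the lowest WT library for both. The summed list was at 0.635, 0.604 and 0.936 times its WT mean in 5XFAD and at 0.741 to 1.2 times in WT. The median was -0.08 without the Ttr-rich libraries.

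Myelin genes varied between single libraries. None of 23 tested members was called by edgeR or DESeq2 and 0 had an unadjusted p under 0.05, with a median of 0.32 that was 0.13 without the Ttr-rich libraries. Mbp was at 1394, 1442 and 2474 CPM in WT and at 1918, 2859 and 1935 CPM in 5XFAD, highest in 5XFAD replicate 2, one of the Ttr-rich libraries, and next in WT replicate 3. None of 19 vascular and 20 neuropeptide genes was called by edgeR or DESeq2, with medians of -0.05 and -0.21. At an unadjusted p under 0.05 there were 0 and 4, against 2739 of all 21555 genes tested. The vascular median was -0.01 without the Ttr-rich libraries. Sst and Cck, peptides of cortical interneurons, were below WT in each 5XFAD library, with adjusted p of 0.348 and 0.361.

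The 16 genes that fell did so by small amounts, and none belongs to a gene list used here. Tmem40, a membrane protein gene, was at 2.18, 1.7 and 2.54 CPM in WT and at 0.743, 0.523 and 1.11 CPM in 5XFAD, a log2 fold change of -1.43 ± 0.27. Ranbp3l was at 6.24, 6.21 and 5.08 CPM in WT and at 2.5, 4 and 3.02 CPM in 5XFAD. Ly6g6e was at 1.06, 1.48 and 1.33 CPM in WT and at 0.418, 0.587 and 0.544 CPM in 5XFAD, and was the 1 gene of the 16 whose call held with each library left out. Chga, which encodes the vesicle protein chromogranin A, was at 149, 152 and 137 CPM in WT and at 121, 96.1 and 105 CPM in 5XFAD, a log2 fold change of -0.45 ± 0.09 with an adjusted p of 0.0156. Zfp365 was at 737, 717 and 764 CPM in WT and at 584, 493 and 578 CPM in 5XFAD. In each of these 5 genes all 5XFAD libraries lay below all WT libraries.

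Some further genes that fell are given next. Sdk2, a synaptic adhesion molecule, was at 48.5, 51.8 and 62.5 CPM in WT and at 23.3, 31.6 and 38.2 CPM in 5XFAD. Ndst3, which sulfates heparan, was at 33.9, 37.8 and 35.6 CPM in WT and at 20.2, 20.5 and 27.5 CPM in 5XFAD. Opn3, Dpp4, Ablim3 and Fam163b fell, with log2 fold changes of -0.78, -0.64, -0.52 and -0.50. Without the Ttr-rich libraries 2 of the 16 were still called, Ranbp3l at 0.00985 and Chga at 0.0374. Ly6g6e, Tmem40, Sdk2 and Ndst3 then had adjusted p of 0.0564, 0.306, 0.593 and 0.748. With the replicate block Dpp4 had 0.072 and 11 of the 16 were still called. Leaving out single libraries left 2 to 30 genes that fell, the fewest without WT replicate 1 and the most without 5XFAD replicate 3. The call of Tmem40 ended without WT replicate 1 or 3, at 0.0682 and 0.0649, that of Ranbp3l without WT replicate 1, at 0.0617, and that of Chga without 4 of the 6 libraries, at 0.0631 to 0.0979. For Sdk2, Ndst3, Ablim3, Dpp4, Opn3, Fam163b and Zfp365 each of 3 or more libraries ended the call, at 0.0523 to 0.165.

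Genes of the choroid plexus reached large fold changes that rest on 2 libraries. The list had 1 call, Cldn2, among 20 tested members, against 0 without WT replicate 1, 16 without 5XFAD replicate 3 and 16 by DESeq2. Its median was 5.56, and -0.26 without the Ttr-rich libraries, where 5XFAD replicate 3 stands alone. Cldn2, a channel-forming claudin, was at 0.0179, 0.066 and 0.108 CPM in WT and at 3.58, 32.2 and 0.0734 CPM in 5XFAD. It is counted among the 402 genes, at an adjusted p of 0.0491, and so is Mfrp, at 7.78, 57.4 and 0.419 CPM in 5XFAD against 0.34, 0.323 and 0.431 CPM in WT, at 0.0429. These are the 2 called genes whose groups overlap. Without the Ttr-rich libraries both had an adjusted p of 0.999, with the replicate block 0.281 and 0.354, and without 1 library at a time 4 of the 6 ended either call, at 0.0735 to 0.24. Ttr itself was not called, with an adjusted p of 0.22. A2m, a broad protease inhibitor, was at 4.02, 43.4 and 10.4 CPM in 5XFAD and at 1.27, 1.38 and 0.977 CPM in WT, with an adjusted p of 0.0243, moving to 0.0816 with the replicate block, 0.115 to 0.134 without single WT libraries and 0.0072 without the Ttr-rich ones.

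Of 49 tested genes on the list for orthologs of human Alzheimer's disease risk genes 9 rose, all of them known from myeloid cells. The list median was 0.17. Those that rose are Trem2, Treml2, Spi1, Cd33, Grn, Inpp5d and Plcg2, described above, with Ctsh and Siglech. The orthology of listed genes, Siglech among them, was not checked. Ctsh, a lysosomal protease, was at 8.1, 9.74 and 10.5 CPM in WT and at 15.3, 20.8 and 34.1 CPM in 5XFAD, and its adjusted p became 0.0928 and 0.0639 without WT replicate 1 and 2. Siglech, a microglial lectin, rose by 1.16 ± 0.20, with 0.0697 and 0.0548 without the same libraries. Risk genes with broad expression were not called, among them Bin1, Abca7, Picalm, Sorl1 and Fermt2, with log2 fold changes of 0.04, 0.00, 0.11, -0.18 and -0.10. Clu, an abundant chaperone of astrocytes, was at 567, 588 and 687 CPM in WT and at 691, 1003 and 859 CPM in 5XFAD, and was not called, with 0.47 ± 0.16 and an adjusted p of 0.199. The list had 3 calls without WT replicate 1 and 11 without 5XFAD replicate 1, and 13 with the replicate block.

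The same contrast at 3 and at 12 months places these changes in time. Its libraries are other libraries, though all share 1 model. At 3 months, with 2 libraries of each genotype, 1 gene rose and 0 fell. Of the 402 genes that rose at 6 months 367 were positive at 3 months, with a median log2 fold change of 0.36. At 12 months 400 of them were positive, with a median of 1.53. Over all genes tested the median was -0.003 at 3 months and 0.025 at 12 months. At 12 months 590 genes rose, 2.74% of those tested, and 315 genes are common to both ages, 78.4% of the 402 and 53.4% of the 590. The fold change was larger at 6 than at 3 months in 400 of the 402, and larger at 12 than at 6 months in 221. The 402 were chosen for a high value at 6 months, so the first of these counts has no test. The difference between the effects at 6 and 3 months was itself called for 0 genes by edgeR, 0%. Of all 21555 genes tested 1161 had an unadjusted p under 0.05 for it, and DESeq2 called 63. The difference between 12 and 6 months was called for 0 genes, 0%, with 684 of the 21555 at an unadjusted p under 0.05 and 0 by DESeq2. Without 5XFAD replicate 1 edgeR called 34 genes for the first difference.

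Single genes show the range of these courses. Gfap had a log2 fold change of 0.90 at 3 months, 3.31 at 6 months and 4.06 at 12 months, and the difference between 6 and 3 months was 2.41 ± 0.48 with an adjusted p of 0.702. Trem2 had 0.79, 2.80 and 2.90, and Ctsd 0.43, 1.90 and 1.87, so that 12 months lay close to 6. Cst7 was already at 6.36 at 3 months, with an adjusted p of 0.138, against 8.44 and 8.99. The cholesterol gene Nsdhl had 0.36, 0.47 and 0.20, and was not called at 12 months. Serpina3n had 0.46, 1.93 and 3.27. None of the differences between ages passed the test for these 6 genes.

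**Figure D5:**
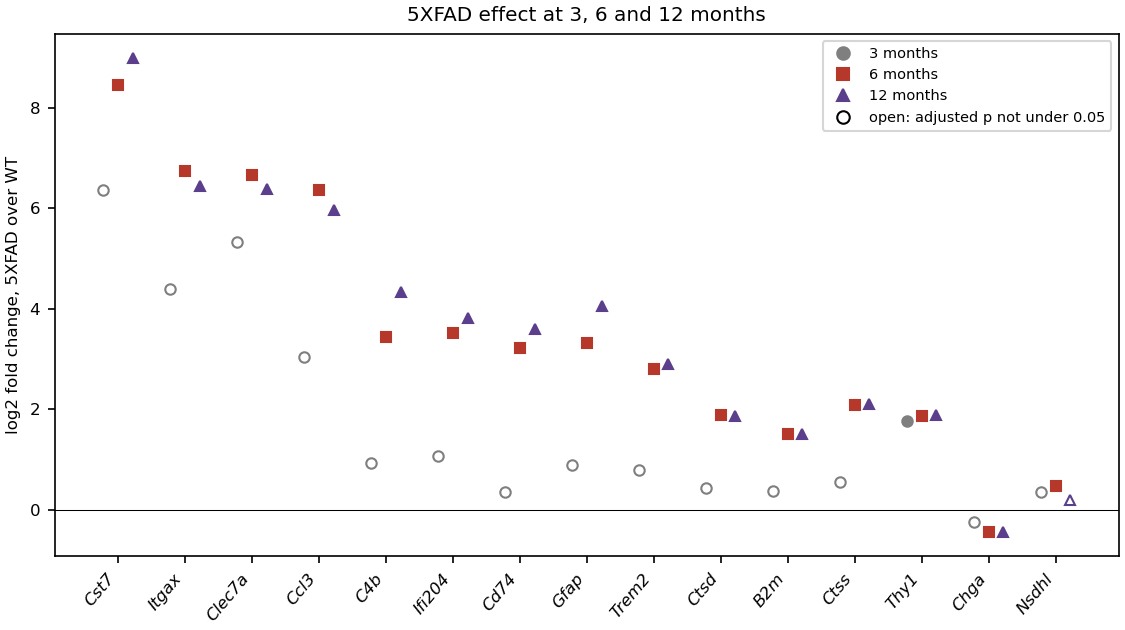
Log2 fold change of 5XFAD over WT for 15 genes at 3 months (circles), 6 months (squares) and 12 months (triangles); open symbols have an adjusted p not under 0.05. Fold changes of most microglial genes lie well above their 3-month value at 6 months, while Thy1 lies between 1.77 and 1.90 at all 3 ages.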

How the data were processed

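Ribosome-depleted cortex RNA was sequenced as paired reads, per the labels' protocols; the molecule label says polyA RNA. The deposited table holds raw counts per gene made by the authors, and the submitters' processing notes name CASAVA, STAR, BWA and the mm9 build, without versions. How reads were counted, and with which strand setting, is not given in the sources used here, so near copies (C4a and C4b, H2 genes) and antisense partners may share reads.

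Genes without a symbol (5072 of 37991) were tested under their identifier. Counts of all 15 libraries were fitted with edgeR 4.0.16 in R 4.3.3 (quasi-likelihood, robust, TMM, 1 coefficient per genotype and age; filterByExpr with a minimum count of 10 and total of 15), which pools the spread over ages; DESeq2 1.42.0 was the other tool. Adjusted p is Benjamini-Hochberg over the 21555 genes tested. On simulated counts of 21112 genes it recovered 56% of 50 genes changed 1.5-fold and 86% of those changed 2-fold, with 6 false calls among 177. The simulation took each gene's spread from the trend over level, without sex or dissection differences, and changed only genes of at least 1 CPM. Its figures need not hold for these libraries, where 64 of the 402 genes that rose had a mean under 1 CPM. Deviations of same-numbered libraries from their group means had correlations of 0.6, 0.2 and 0.18 for numbers 1, 2 and 3. Number 1 joins the 2 male libraries. WT 3 with 5XFAD 2 had 0.15 and WT 2 with 5XFAD 3 had 0.037, so numbers 2 and 3 are hardly told apart by this check. It therefore cannot show that same-numbered libraries are pairs. The replicate block, which treats them as pairs, is an alternative fit, given where it changes a call. Libraries over 100 CPM of Ttr were treated as rich in it. Poisson intervals cover counting error only.

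The members, lists, motifs and tests were chosen with earlier results of these data known. Named genes were every transgene-related gene, the 15 largest increases and 10 largest decreases without overlap at a mean of at least 1 CPM, the 10 smallest p, per list the 5 of smallest p, and called members of 5 lists; not all are described. Genes known for their role but outside this rule were chosen after their values were seen, among them Apoe's companions Spp1 and Gpnmb, P2ry12, Tmem119, Ly6g6e, Mfrp, Ttr, Ciita, Ctsb, Tlr4, Tlr7, Il1b, Tnf, Il6, the printed promoters' Ifit1, Ifit3 and Oas3, and most genes given as not called. Promoters are RefSeq's (GRCm38.p6), not the build of the files, none of whose coordinates are used. Human transgene sequences were not analysed here, and some genes are not reported here.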

Additional observations from a re-analysis of the deposited data

How the results depend on the processing

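Against 402 genes that rose and 16 that fell, DESeq2 called 766 and 96, and a fit of the 6-month libraries alone, which has fewer degrees of freedom, called 24 and 0. With the replicate block, which treats same-numbered libraries as pairs though pairing was not established, 503 rose and 56 fell. With that block in the 6-month libraries alone 409 rose and 68 fell. Without the Ttr-rich libraries 542 rose and 4 fell, and with number 1 left out of both genotypes 400 and 2; the cause was not tested. Leaving out single libraries gave 143 to 662 genes that rose and 2 to 30 that fell, and 89 to 269 called genes within lists against 208, or 15 with the 6-month libraries alone. Library totals in place of TMM scaling moved the median of all genes by 0.0609 and gave 455 and 11. The difference of effects between 6 and 3 months had 134 calls without the Ttr-rich libraries, 1 with number 1 left out, 63 by DESeq2 and 0 to 34 without single libraries. Of the 233 genes named in the text 154 were called in the main fit. No alternative turned a direction that was called in either fit. Over all alternatives 434 of 3701 values lost a call and 80 gained one, though the 3701 include genes with no call to lose. The fit of the 6-month libraries alone ended 140 of the 154 calls. In that fit the Trem2 list had 1 call and the Fc receptor list 0. Beyond the calls given beside their genes, the block ended no other call described. Genes with few counts in WT have wide intervals, and differences under 2-fold were partly below what 3 libraries a group could show.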

Other observations

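Of the 402 genes that rose in 5XFAD cortex at 6 months, 194 were in no gene list used here. The genes named in this paragraph were chosen after their values were seen. Gpr65, a proton-sensing receptor of immune cells, was at 0.0894, 0.033 and 0.101 CPM in WT and at 0.856, 1.29 and 2.22 CPM in 5XFAD, a log2 fold change of 4.30 ± 0.42. St14, a membrane serine protease, was at 0.331, 0.218 and 0.331 CPM in WT and at 2.67, 3.8 and 8.63 CPM in 5XFAD. Siglecf, a lectin that binds sialic acid, was at 0.456, 0.468 and 0.41 CPM in WT and at 1.92, 3.21 and 5.91 CPM in 5XFAD, and Cd22, another such lectin, better known from B cells, at 0.241, 0.264 and 0.388 CPM and at 1.01, 2.21 and 4.0 CPM. The groups did not overlap for these 4 genes.

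The genes named next were also chosen after their values were seen. Ptprc, which encodes CD45, was at 1.88, 2.57 and 2.88 CPM in WT and at 8.06, 12.8 and 21.9 CPM in 5XFAD, and Mpeg1, a pore-forming protein of macrophages, at 29.1, 28.6 and 36.7 CPM and at 103, 160 and 271 CPM. Both were highest in 5XFAD replicate 3. Smaller increases were those of Stard4, a sterol carrier, by 0.73 ± 0.11, Slc14a1, a urea transporter of astrocytes, by 1.53 ± 0.24, and Irgm1, an interferon-induced GTPase, by 0.77 ± 0.13. All of these genes were called by edgeR's quasi-likelihood test with Benjamini-Hochberg adjustment in each of the 6 fits that left out 1 library.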
